A study of Homo sapiens with 18 samples.

Results

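The leukocyte integrins and adhesion molecules are described here as 10 genes chosen by name: ITGAM, ITGAX, ITGAL, ITGB2, ITGA4, ITGA5, ITGB1, ITGB7, ICAM1 and SELPLG. All 10 were among the 17475 genes listed for MOLM-13, and 9 were among the 17110 genes listed for HL-60, where ICAM1 was not analysed. Every listed member passed the filter on low values. RNA had been measured by stranded total RNA sequencing in 2 human acute myeloid leukaemia lines, HL-60, a promyelocytic line, and MOLM-13, a monocytic line. Each line received the solvent dimethyl sulfoxide (DMSO), decitabine (DAC) or NTX-301 for 48 h, with 3 replicates in each of the 6 groups, 18 samples in all. DAC is a deoxycytidine analogue that is built into DNA and traps DNA methyltransferases, and NTX-301 is the compound that the title of the series names. Per the labels HL-60 received 30 nM and MOLM-13 received 15 nM, without saying whether both drugs or only DAC had these concentrations. Concentration and line therefore cannot be told apart. The labels do not say whether the triplicates were separate cultures, so p-values measure the spread among these samples, which may be technical.

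Integrins are surface receptors made of an α and a β subunit, and the pair decides what the cell binds. ITGB2 encodes the β2 subunit shared by LFA-1 (with ITGAL, which binds ICAM proteins), Mac-1 (with ITGAM, which also binds complement fragments and fibrinogen) and the p150,95 receptor (with ITGAX). ITGB1 pairs with ITGA4 in the receptor for VCAM-1 and fibronectin that holds blood cells in the marrow, and with ITGA5 in the classical fibronectin receptor. ITGB7 pairs with ITGA4 in the gut-homing receptor for MAdCAM-1. ICAM1 is a ligand of the β2 integrins, and SELPLG encodes PSGL-1, the main ligand of P-selectin on leukocytes. ITGAM and ITGAX appear or rise as myeloid cells mature.

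Of the 10 members, 6 matched the RefSeq promoter table (build GRCh38.p14). Promoters are shown for ITGAM and ITGB7, which had the largest rises in MOLM-13 among those 6 under either drug, and for ITGA4, which fell there, as the contrast. Each line gives the 250 bases before the transcription start on the gene's strand, 5′ to 3′, with every CG in capitals. The windows are chr16:31259725-31259974 on the plus strand for ITGAM, chr12:53207252-53207501 on the minus strand for ITGB7 and chr2:181457136-181457385 on the plus strand for ITGA4.
ITGAM: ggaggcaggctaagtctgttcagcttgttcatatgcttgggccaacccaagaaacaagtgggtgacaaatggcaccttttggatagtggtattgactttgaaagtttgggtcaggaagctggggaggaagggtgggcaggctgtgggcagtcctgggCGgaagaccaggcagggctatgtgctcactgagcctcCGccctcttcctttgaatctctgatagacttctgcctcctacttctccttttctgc
ITGB7: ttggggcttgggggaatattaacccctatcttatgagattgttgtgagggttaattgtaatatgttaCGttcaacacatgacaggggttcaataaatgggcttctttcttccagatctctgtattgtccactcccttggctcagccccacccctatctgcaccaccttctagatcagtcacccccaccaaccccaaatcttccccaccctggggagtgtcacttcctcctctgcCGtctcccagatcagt
ITGA4: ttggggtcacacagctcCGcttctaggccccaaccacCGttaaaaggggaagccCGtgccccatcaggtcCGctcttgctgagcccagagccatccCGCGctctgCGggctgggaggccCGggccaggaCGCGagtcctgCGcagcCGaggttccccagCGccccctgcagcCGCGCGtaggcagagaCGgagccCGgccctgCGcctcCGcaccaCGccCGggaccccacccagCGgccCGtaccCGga

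The capitals are sparse in ITGAM and ITGB7 and dense in ITGA4. In the table's full windows of 300 bases (250 before the start and 50 after), ITGAM held 2 CG, ITGB7 4 and ITGA4 31, against a median of 14 over 35116 promoters. The other matched members held 16 (ITGA5), 24 (ICAM1) and 39 and 4 (the 2 windows of ITGB1). In MOLM-13, ITGA5 was called higher with both drugs, ICAM1 was called higher with DAC, and ITGB1 was not called. The ITGA4 falls there were not called after quantile normalization. The responses in HL-60 were unlike these. There ITGA4 and ITGB1 were called higher and ITGA5 lower with both drugs, and ITGAM and ITGB7 were called higher with NTX-301 only. A relation of CG count to drug response was not tested. GAGGAA, a core sequence bound by the myeloid factor PU.1, was counted on both strands of the same windows. It occurred 2 times in ITGAM, 2 times in ITGB7 and 1 time in the CG-rich ITGB1 window, and not in the windows of ITGA4, ITGA5 or ICAM1. Of all promoters of this length, 27.9% held it. These counts describe letters, and DNA methylation was not analysed here.

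Values are deposited log2 values per gene, normalized by the authors. Whether they were divided by gene length is not given, so levels of members are compared within a gene only. The marker sums below add linear values over genes, and the weight of each gene in a sum depends on this unstated scaling. The SD of 3 replicates had a median over genes of 0.027 to 0.043 in the 6 groups. The deposited scale compresses low genes: among HL-60 genes the median range over 9 samples was 0.066 at a mean of 3 to 5 and 0.21 at 8 to 12. ITGAX and ITGB7 are low in HL-60. Markers of the labelled and of other cell types were looked up among the listed genes. Being listed does not by itself show expression, since SNORA86 was listed in HL-60 at a DMSO mean of −0.0016. These counts therefore do not settle the cell type. All 5 granulocytic precursor genes (MPO, ELANE, PRTN3, AZU1 and CTSG) were listed in both lines, and of 6 monocyte markers 3 were listed in HL-60 and 4 in MOLM-13, with CD14 and FCN1 in neither. Of 27 markers of T cells, B cells, erythroid cells, platelets, fibroblasts and epithelium, 1 was listed in HL-60 and 6 in MOLM-13.

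In MOLM-13, both drugs raised the α subunits ITGAM and ITGAX, while ITGB2, the β subunit they share, did not rise. ITGB7 also rose with both drugs, ICAM1 rose with DAC, and ITGA4 fell slightly with both. A gene is called changed at a limma adjusted p under 0.05 over all genes tested. DAC raised 5 of the 10 members and lowered 3, where 15.4% of all 17475 genes were called higher and 21.2% lower, 36.6% in all. NTX-301 raised 5 and lowered 2, where 20.3% of all genes were called higher and 24.8% lower, 45.1% in all. Values did not overlap with those of DMSO for 8 members under DAC, against 47.9% of all genes, and for 9 under NTX-301, against 55.8%. The median absolute log2 difference was 0.11 over the members and 0.078 over all genes with DAC, and 0.14 and 0.093 with NTX-301.

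ITGAM (NCBI Gene 3684) had log2 values of 10.06, 10.14 and 10.09 with DMSO, 10.78, 10.73 and 10.69 with DAC, and 10.77, 10.83 and 10.81 with NTX-301 in MOLM-13. All 6 treated samples lay above all 3 DMSO samples, and the 2 drug groups overlapped. The rise was 0.64 with DAC (SE 0.036, fold 1.55, adjusted p 4.48e-07) and 0.71 with NTX-301 (SE 0.036, fold 1.63, adjusted p 1.82e-07). Among the 17475 genes ITGAM held rank 43 from the highest difference with DAC and rank 41 with NTX-301.

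ITGAX (3687), its neighbour on chromosome 16, had 9.66, 9.51 and 9.55 with DMSO, 10.15, 10.25 and 10.23 with DAC, and 10.29, 10.27 and 10.24 with NTX-301. The treated samples again lay above every DMSO sample, by more than the spread of any group. The differences were 0.64 with DAC (SE 0.045, adjusted p 2.30e-06, rank 42) and 0.69 with NTX-301 (SE 0.045, adjusted p 8.19e-07, rank 45). The 4 listed monocyte markers moved in the same libraries: the log2 of their summed linear values ran from 16.52 to 16.60 with DMSO, 17.30 to 17.41 with DAC and 16.67 to 16.75 with NTX-301. That sum is mostly LYZ, the lysozyme gene, whose group means were 16.47, 17.25 and 16.59. The other 3 were higher with both drugs than with DMSO: CSF1R had 9.82, 10.33 and 10.22, VCAN had 11.27, 11.79 and 11.58, and CD68 had 11.56, 12.24 and 12.02. The granulocytic precursor genes summed to 17.61 to 17.67, 17.73 to 17.87 and 17.60 to 17.73 in the same order. That sum is mostly PRTN3, whose group means were 16.89, 17.05 and 16.82. MPO had 13.04, 13.765 and 12.95, and ELANE had 14.94, 15.07 and 15.04. AZU1 had 14.94, 15.11 and 15.14, and CTSG had 13.45, 13.38 and 13.54. Among markers of other cell types, CD3D of T cells ran from 7.38 to 7.55, 7.53 to 7.63 and 7.68 to 7.78, and COL1A1 of fibroblasts from 5.81 to 5.84, 5.96 to 6.07 and 6.02 to 6.08. KRT18 of epithelium ran from 9.24 to 9.40, 9.37 to 9.43 and 9.30 to 9.36, and the globin genes HBB, HBA1 and HBA2 summed to 9.58 to 10.07, 9.44 to 9.88 and 9.79 to 10.42. The part of these genes in the rise of ITGAM and ITGAX was not tested. In bulk RNA, a change in the share of some cells and a change of RNA per cell cannot be told apart.

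ITGB2 (3689) had 14.16, 14.19 and 14.18 with DMSO in MOLM-13, 14.12, 14.14 and 14.05 with DAC, and 14.03, 14.03 and 14.00 with NTX-301. Both drug groups lay below the DMSO group without overlap, NTX-301 the lower of them. The fall was −0.15 with NTX-301 (SE 0.026, adjusted p 0.000483), and it was −0.039 and no longer called after quantile normalization. With DAC it was −0.071 (SE 0.026, adjusted p 0.0488), a call kept in only 5 of 17 alternative analyses. In 11 the fall was no longer called, and quantile normalization turned it to 0.026, not called. The overlapping antisense RNA ITGB2-AS1 stood at 6.34 ± 0.058 in the DMSO group, 6.49 ± 0.054 in the DAC group and 6.49 ± 0.096 in the NTX-301 group (SD, n = 3), and the use of strand in counting is not stated.

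ITGAL (3683), the α subunit of LFA-1, had 15.75, 15.73 and 15.73 with DMSO, 15.64, 15.66 and 15.65 with DAC, and 15.70, 15.66 and 15.70 with NTX-301. Both drug groups lay just below DMSO. The difference was −0.087 with DAC (SE 0.022, adjusted p 0.00939) and −0.053 under NTX-301 (adjusted p 0.071, not called). Quantile normalization gave −0.022 with DAC, not called, and turned the NTX-301 value to 0.019. The NTX-301 fall was called with median-centred samples (−0.083, adjusted p 0.00762) and without the mean-variance trend (−0.053, adjusted p 0.0431).

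ITGB7 (3695) had 10.42, 10.34 and 10.44 with DMSO in MOLM-13, 10.93, 10.77 and 10.80 with DAC, and 10.88, 10.75 and 10.84 with NTX-301. Every treated sample was higher than every DMSO sample. The difference was 0.43 with DAC (SE 0.049, adjusted p 5.11e-05) and 0.42 with NTX-301 (SE 0.049, adjusted p 3.73e-05). The overlapping gene ZNF740 stood at 12.16 ± 0.048 in the DMSO group, 12.18 ± 0.038 in the DAC group and 12.12 ± 0.041 in the NTX-301 group (SD, n = 3).

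ITGA4 (3676), the partner of ITGB7 and ITGB1, went the other way, from 14.22, 14.30 and 14.27 with DMSO to 14.17, 14.12 and 14.11 with DAC and 14.13, 14.14 and 14.11 with NTX-301. The groups did not overlap with DMSO in either case. The fall was −0.12 with DAC (SE 0.027, adjusted p 0.0034) and −0.13 with NTX-301 (SE 0.027, adjusted p 0.00158), and after quantile normalization it was −0.043 and −0.030, neither called.

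ITGA5 (3678), the fibronectin receptor's α subunit, rose from 14.33, 14.31 and 14.36 with DMSO to 14.46, 14.42 and 14.39 with DAC and 14.44, 14.41 and 14.48 with NTX-301. The differences were 0.095 (SE 0.027, adjusted p 0.0162) and 0.11 (SE 0.027, adjusted p 0.0052), and quantile normalization raised them to 0.18 and 0.23. The DAC call was lost with median-centred samples (0.058), without DMSO replicate 2 (0.083) and without DAC replicate 1 (0.076). Its β partner ITGB1 (3688) overlapped between all 3 groups, at 13.72 to 13.78 with DMSO, 13.63 to 13.76 with DAC and 13.69 to 13.76 with NTX-301. The ITGB1 differences of −0.064 and −0.038 were not called, and quantile normalization turned them to 0.032 and 0.074, the latter called. The DAC difference was called lower, at −0.10, with median-centred samples (adjusted p 0.024) and without DAC replicate 1 (adjusted p 0.0208).

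ICAM1 (3383) had 8.10, 8.16 and 8.31 with DMSO in MOLM-13, 8.48, 8.44 and 8.67 with DAC, and 8.35, 8.37 and 8.34 with NTX-301. The NTX-301 samples lay between the other 2 groups without overlap, and the DMSO and DAC groups were wider (SD 0.11 and 0.12) than those of any other member in MOLM-13. The difference was 0.34 with DAC (SE 0.07, adjusted p 0.00267) and 0.16 with NTX-301 (SE 0.07, adjusted p 0.0768, not called). The NTX-301 value was called at 0.22 without DMSO replicate 3, and at 0.16 without DAC replicate 3 and with genes kept at a mean log2 of at least 5. Quantile normalization made it 0.062 (adjusted p 0.53). SELPLG (6404) had 12.43, 12.39 and 12.44 with DMSO, 12.40, 12.42 and 12.42 with DAC, and 12.55, 12.46 and 12.59 with NTX-301. The DAC samples lay within the DMSO range and the NTX-301 samples above it. LOC105369968, which overlaps SELPLG, stood at 5.30 ± 0.048, 5.39 ± 0.079 and 5.44 ± 0.069 in the same order (SD, n = 3). The NTX-301 difference was 0.11 (SE 0.031, adjusted p 0.0114), a call lost without NTX-301 replicate 3 (0.085), and the DAC difference was −0.006 (adjusted p 0.899), which quantile normalization turned to 0.057.

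**Figure D1:**
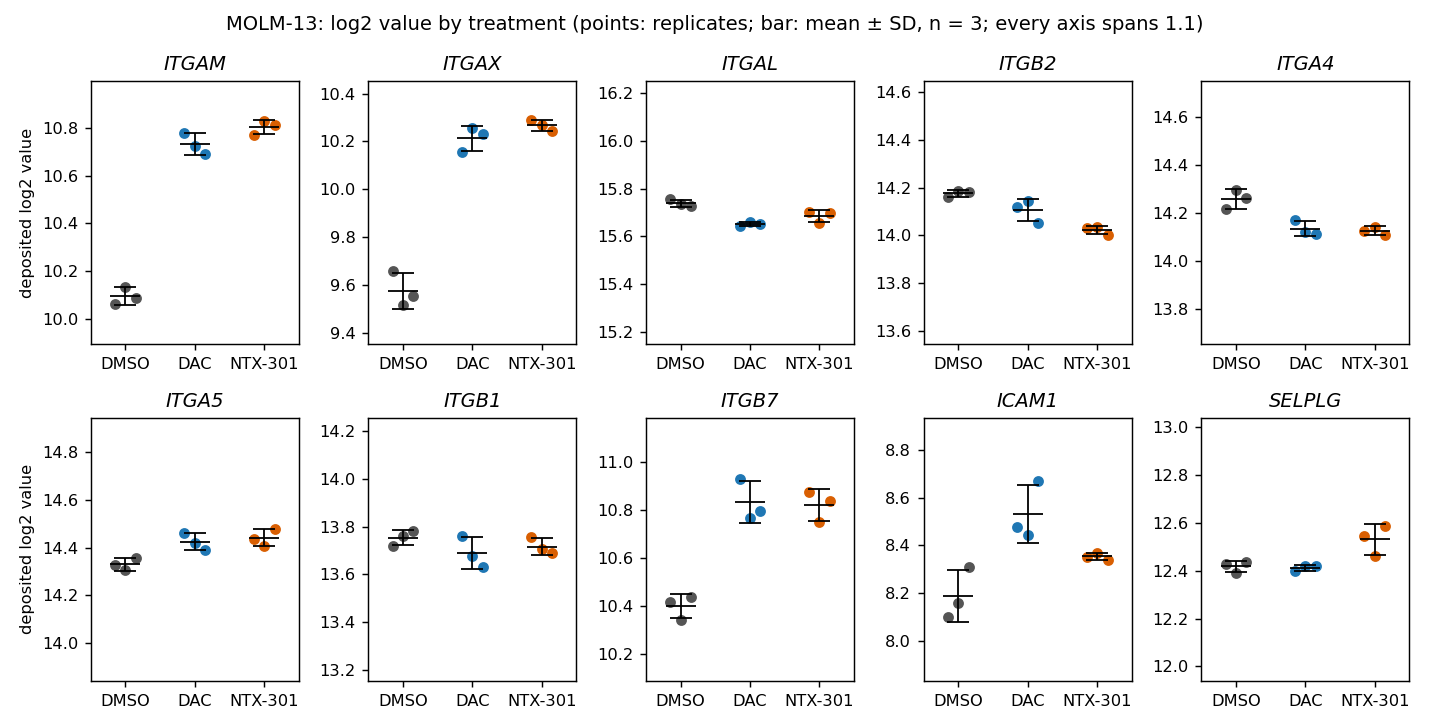
Deposited log2 values in MOLM-13 of the 10 members, one panel each, by treatment. Points are replicates, bars are mean ± SD (n = 3), and every vertical axis spans 1.1 log2 units without starting at 0, so distances can be compared between panels. ITGAM, ITGAX and ITGB7 lie higher in all 6 treated samples than in the 3 DMSO samples.

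In HL-60, NTX-301 changed all 9 listed members and DAC changed 5 of them. The β2 family subunits ITGAM, ITGAX, ITGAL and ITGB2 all rose with NTX-301, SELPLG and ITGA5 fell, and ITGB2 moved in opposite directions with the 2 drugs. NTX-301 raised 7 members and lowered 2, where 18.3% of all 17046 genes tested were called higher and 19.2% lower, 37.4% in all. DAC raised 3 and lowered 2, where 11.6% were called higher and 12.6% lower, 24.2% in all. Values did not overlap with those of DMSO for 9 members under NTX-301, against 47.2% of all genes, and for 6 under DAC, against 38.5%. The median absolute log2 difference was 0.21 over the members and 0.055 over all genes with NTX-301, and 0.090 and 0.043 with DAC.

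ITGAM in HL-60 had log2 values of 6.86, 6.94 and 6.96 with DMSO, 6.84, 7.02 and 6.90 with DAC, and 7.34, 7.32 and 7.39 with NTX-301. The DAC samples straddled the DMSO samples, and all NTX-301 samples lay above both groups. The NTX-301 difference was 0.43 (SE 0.047, fold 1.35, adjusted p 5.89e-06). With DAC it was 0.0031 (95% confidence interval −0.097 to 0.10, adjusted p 0.972), a value whose sign changed after quantile normalization and without single replicates. Levels of ITGAM in the 2 lines were set by separate normalizations and are not compared.

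ITGB2 in HL-60 had 12.08, 12.15 and 12.20 with DMSO, 12.03, 12.01 and 12.02 with DAC, and 12.32, 12.33 and 12.40 with NTX-301. The 3 groups did not overlap, with DAC lowest and NTX-301 highest. The difference was −0.12 with DAC (SE 0.031, adjusted p 0.00892) and 0.21 with NTX-301 (SE 0.031, adjusted p 9.77e-05). ITGAL rose from 11.60, 11.65 and 11.66 with DMSO to 11.78, 11.80 and 11.75 with DAC and 11.85, 11.89 and 11.86 with NTX-301, again without overlap. Its differences were 0.14 (SE 0.026, adjusted p 0.00113) and 0.24 (SE 0.026, adjusted p 5.72e-06).

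ITGAX in HL-60 was low, at 4.55 to 4.56 with DMSO, 4.57 to 4.62 with DAC and 4.62 to 4.68 with NTX-301. Its NTX-301 difference of 0.096 was called (SE 0.020, adjusted p 0.00137), and the DAC difference of 0.043 was not (adjusted p 0.132). ITGB7 was also low, at 5.23 to 5.33, 5.30 to 5.33 and 5.36 to 5.39 in the same order. Its NTX-301 difference was 0.11 (SE 0.027, adjusted p 0.00699), and the DAC difference of 0.040 was not called (adjusted p 0.325). ZNF740 stood there at 12.21 ± 0.026 in the DMSO group, 12.17 ± 0.017 in the DAC group and 12.11 ± 0.025 in the NTX-301 group (SD, n = 3).

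The fibronectin receptor's subunits moved apart in HL-60. ITGA5 fell from 13.15, 13.13 and 13.20 with DMSO to 13.03, 12.99 and 13.03 with DAC and 12.93, 12.92 and 12.92 with NTX-301, 3 groups without overlap. The fall was −0.14 with DAC (SE 0.023, adjusted p 0.000521) and −0.23 with NTX-301 (SE 0.023, adjusted p 2.23e-06). ITGB1 rose from 13.32, 13.34 and 13.26 with DMSO to 13.41, 13.36 and 13.42 with DAC and 13.46, 13.49 and 13.50 with NTX-301. Its differences were 0.090 (SE 0.025, adjusted p 0.0166) and 0.18 (SE 0.025, adjusted p 5.49e-05). The DAC call for ITGB1 was lost without DMSO replicate 3 (0.069), DAC replicate 1 (0.085) or DAC replicate 3 (0.077). The pseudogene ITGB1P1 is also listed, and how reads were shared between it and ITGB1 is not stated.

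ITGA4 in HL-60 had 15.03, 15.00 and 14.98 with DMSO, 15.16, 15.15 and 15.17 with DAC, and 15.06, 15.06 and 15.08 with NTX-301, so that NTX-301 lay between the others. The difference was 0.15 with DAC (SE 0.018, adjusted p 3.87e-05) and 0.059 with NTX-301 (SE 0.018, adjusted p 0.0198). The NTX-301 call was lost with median-centred samples (0.031) and without DMSO replicate 2 (0.057), DMSO replicate 3 (0.047) or NTX-301 replicate 3 (0.051). SELPLG had 10.16, 10.10 and 10.10 with DMSO, 10.02, 10.12 and 10.06 with DAC, and 9.83, 9.82 and 9.85 with NTX-301. Only the NTX-301 group lay apart, at a difference of −0.29 (SE 0.034, adjusted p 1.41e-05), and the DAC difference of −0.050 was not called (adjusted p 0.322).

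Marker lists moved in HL-60 as well. The log2 of the summed granulocytic precursor genes ran from 19.00 to 19.09 in the DMSO group. It was 18.99 in every DAC sample and ran from 18.62 to 18.65 in the NTX-301 group. That sum is mostly MPO, whose group means were 18.71, 18.64 and 18.36. The other granulocytic genes had higher means with DAC than with DMSO, and lower ones with NTX-301. ELANE had 14.26, 14.29 and 13.78, and PRTN3 had 16.07, 16.13 and 15.31. AZU1 had 12.8, 12.997 and 12.55, and CTSG had 13.73, 13.81 and 13.51. The 3 listed monocyte markers summed to 12.31 to 12.35, 12.56 to 12.62 and 12.25 to 12.30 in the same order, a sum that is mostly LYZ, the lysozyme gene. LYZ itself had group means of 12.28, 12.53 and 12.21, while CSF1R had 6.60, 6.68 and 7.02 and CD68 had 6.80, 6.996 and 6.98. CD79A, the B cell marker listed in HL-60, ran from 6.42 to 6.44, 6.49 to 6.50 and 6.76 to 6.86. The part of these markers in the changes of the adhesion genes was not tested.

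**Figure D2:**
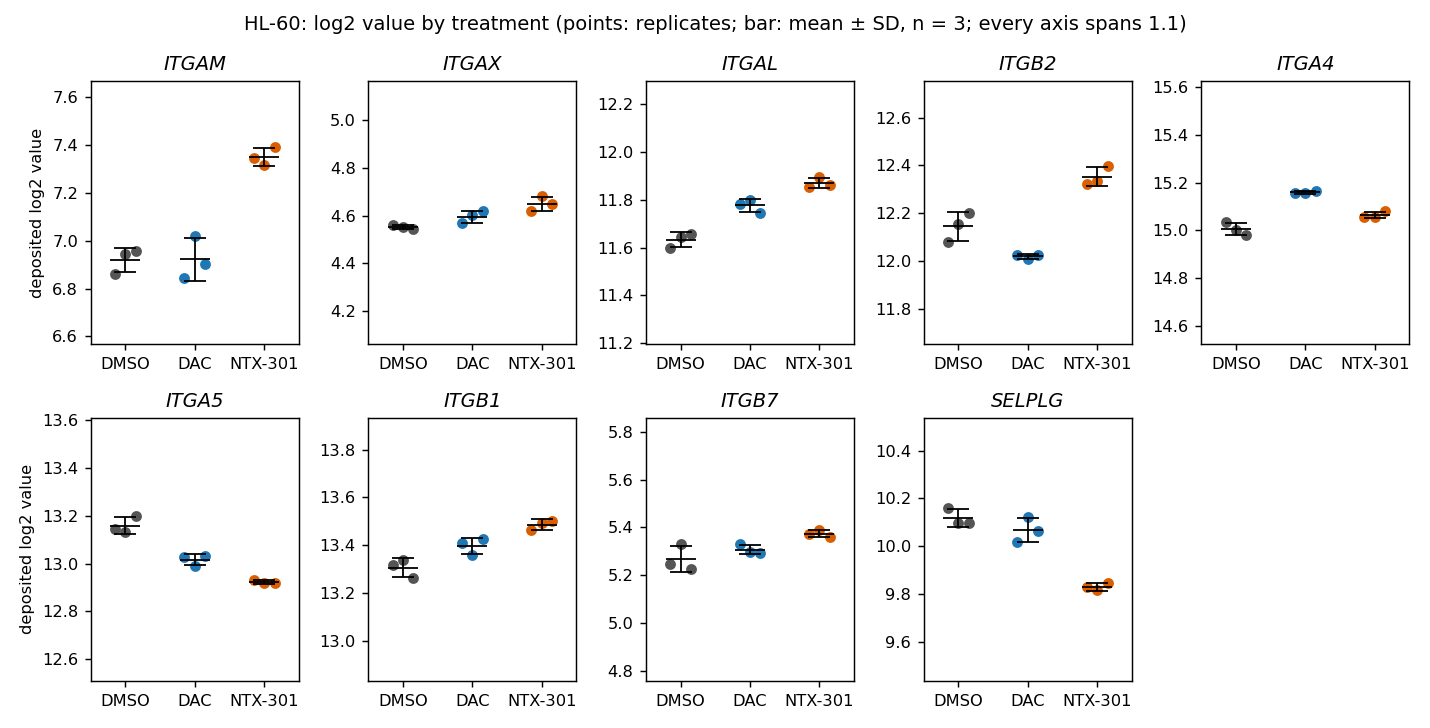
Deposited log2 values in HL-60 of the 9 listed members by treatment, drawn as for MOLM-13: points are replicates, bars are mean ± SD (n = 3), and every vertical axis spans 1.1 log2 units without starting at 0. ITGAM and SELPLG stand apart from DMSO with NTX-301 only, and ITGB2 lies below DMSO with DAC and above it with NTX-301.

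The 2 drugs were compared directly, 1 pair of compounds in 2 lines, with p-values adjusted over all genes tested. Whether the doses matched is not given. In HL-60, NTX-301 gave higher values than DAC for 4 members and lower values for 3, where 15.4% of all genes were called higher and 15.0% lower, 30.4% in all. The drugs did not overlap for 9 of 9 members, against 44.4% of all genes. ITGAM differed by 0.43 (SE 0.047, adjusted p 1.07e-05), ITGB2 by 0.33 (SE 0.031, adjusted p 2.17e-06) and SELPLG by −0.24 (SE 0.034, adjusted p 0.000126). These were the 3 members with the widest gaps between the drugs in HL-60.

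Smaller differences between the drugs in HL-60 were called for ITGA4 (−0.095), ITGA5 (−0.093), ITGAL (0.094) and ITGB1 (0.089). The ITGAL call was lost with median-centred samples (0.065) and without DAC replicate 3 (0.079) or NTX-301 replicate 2 (0.082). The ITGB1 call was lost with median-centred samples (0.060) and without DAC replicate 2 (0.070) or NTX-301 replicate 3 (0.081). ITGAX (0.053, 95% confidence interval 0.011 to 0.095) and ITGB7 (0.066, 0.0075 to 0.12) were not called after adjustment. ITGAX was called with 1 added to the linear value (0.051), without DAC replicate 3 (0.064) and without NTX-301 replicate 1 (0.069), and was 0.024 with median-centred samples. ITGB7 was called with only the 2 groups compared and without DMSO replicate 2, at 0.066 in both, and was 0.037 with median-centred samples.

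In MOLM-13, 1 of 10 members was called between the drugs, SELPLG, higher with NTX-301 by 0.12 (SE 0.031, adjusted p 0.0419), where 3.01% of all genes were called higher and 4.41% lower, 7.42% in all. The drugs did not overlap for 3 members (ITGB2, ICAM1 and SELPLG), against 27.3% of all genes. The SELPLG call was lost in 10 of 17 alternative analyses. For the members that rose most, the 95% confidence interval of NTX-301 minus DAC was −0.0071 to 0.15 for ITGAM, −0.045 to 0.15 for ITGAX and −0.12 to 0.097 for ITGB7. The ICAM1 difference was −0.18 (−0.33 to −0.022, adjusted p 0.159), not called. ITGB2 differed by −0.083 (−0.14 to −0.026, adjusted p 0.0759), and it was called at −0.11 without DAC replicate 3.

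**Figure D3:**
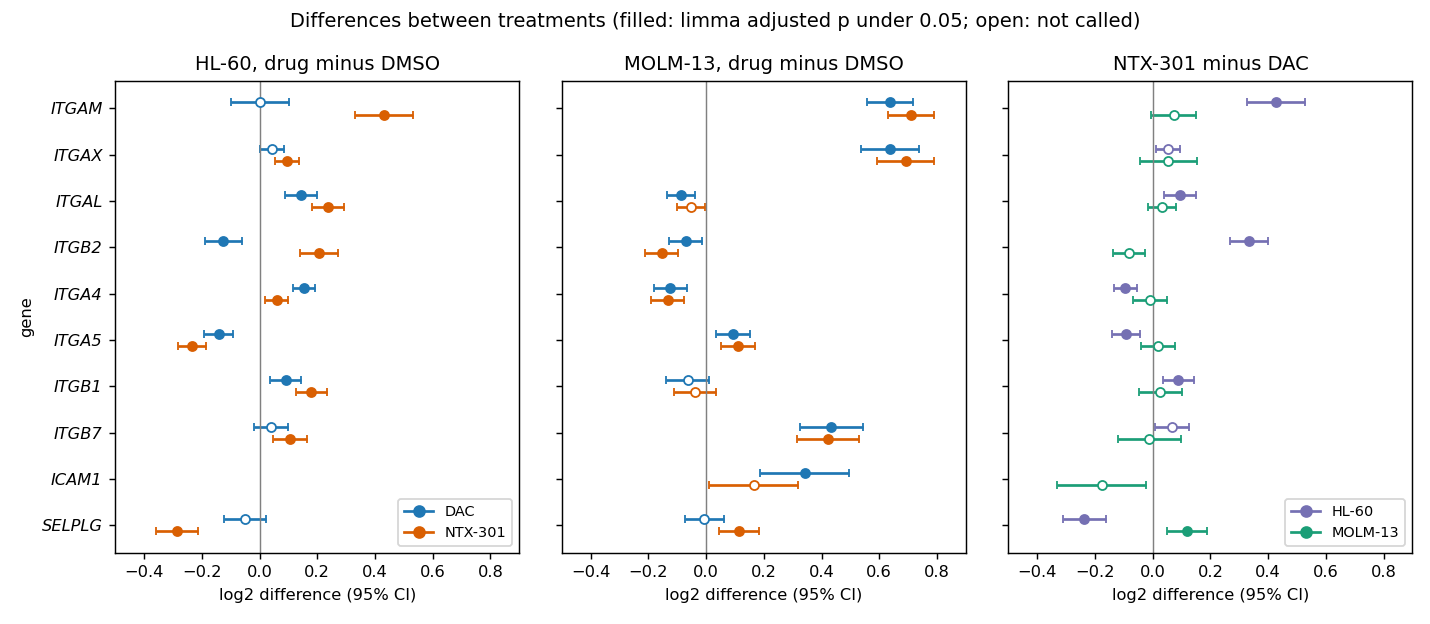
Log2 differences with 95% confidence intervals for each member: both drugs against DMSO in HL-60 (left) and MOLM-13 (middle), and NTX-301 minus DAC in each line (right). Filled points have a limma adjusted p under 0.05. In the left panel the ITGB2 intervals lie on opposite sides of 0, and in the right panel ITGAM is at 0.43 in HL-60 and at 0.072 in MOLM-13.

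Whether a drug acted differently on a member in the 2 lines was tested directly, as the effect in MOLM-13 minus the effect in HL-60, over 15474 genes tested in both. With DAC, 4 of 9 members had a higher effect in MOLM-13 and 3 a lower one, where 12.1% of all genes were called higher and 17.9% lower, 30.0% in all. With NTX-301 the counts were 5 and 4, where 17.6% were called higher and 22.4% lower, 40.0% in all. The effect on ITGAX was larger in MOLM-13, by 0.59 with DAC (SE 0.059, adjusted p 5.39e-07) and 0.59 with NTX-301 (SE 0.059, adjusted p 2.18e-07). The gap for ITGAM was 0.63 with DAC (SE 0.065, adjusted p 8.46e-07) and 0.28 with NTX-301 (SE 0.065, adjusted p 0.00224), NTX-301 having raised ITGAM in HL-60 too. ITGAX and ITGB7 are low in HL-60, where the scale is compressed. ITGAM had HL-60 group means of 6.92 to 7.35. The median range over 9 samples was 0.16 among HL-60 genes at a mean of 5 to 8, against 0.21 at 8 to 12. The part of compression in the gaps of ITGAX, ITGB7 and ITGAM was not tested.

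Several members moved in opposite directions in the 2 lines. ITGA5 fell in HL-60 and rose in MOLM-13 with both drugs, a gap of 0.24 with DAC (SE 0.035, adjusted p 4.08e-05) and 0.35 with NTX-301 (SE 0.035, adjusted p 2.47e-07). ITGA4 rose in HL-60 and fell in MOLM-13 with both drugs, gaps of −0.28 (SE 0.032, adjusted p 2.86e-06) and −0.19 (SE 0.032, adjusted p 8.70e-05), although its falls in MOLM-13 were not called after quantile normalization. ITGAL rose in HL-60 and fell in MOLM-13 with DAC, a gap of −0.23 (SE 0.030, adjusted p 1.15e-05), its MOLM-13 fall likewise not called after quantile normalization. ITGB2 and SELPLG moved in opposite directions with NTX-301, with gaps of −0.36 (SE 0.041, adjusted p 1.12e-06) and 0.40 (SE 0.046, adjusted p 1.32e-06), although the ITGB2 fall in MOLM-13 was not called after quantile normalization and the SELPLG rise there was not called without NTX-301 replicate 3. With DAC neither differed detectably between the lines (ITGB2 0.054, adjusted p 0.342, and SELPLG 0.044, adjusted p 0.505), and quantile normalization made the ITGB2 gap 0.14, called.

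**Figure D4:**
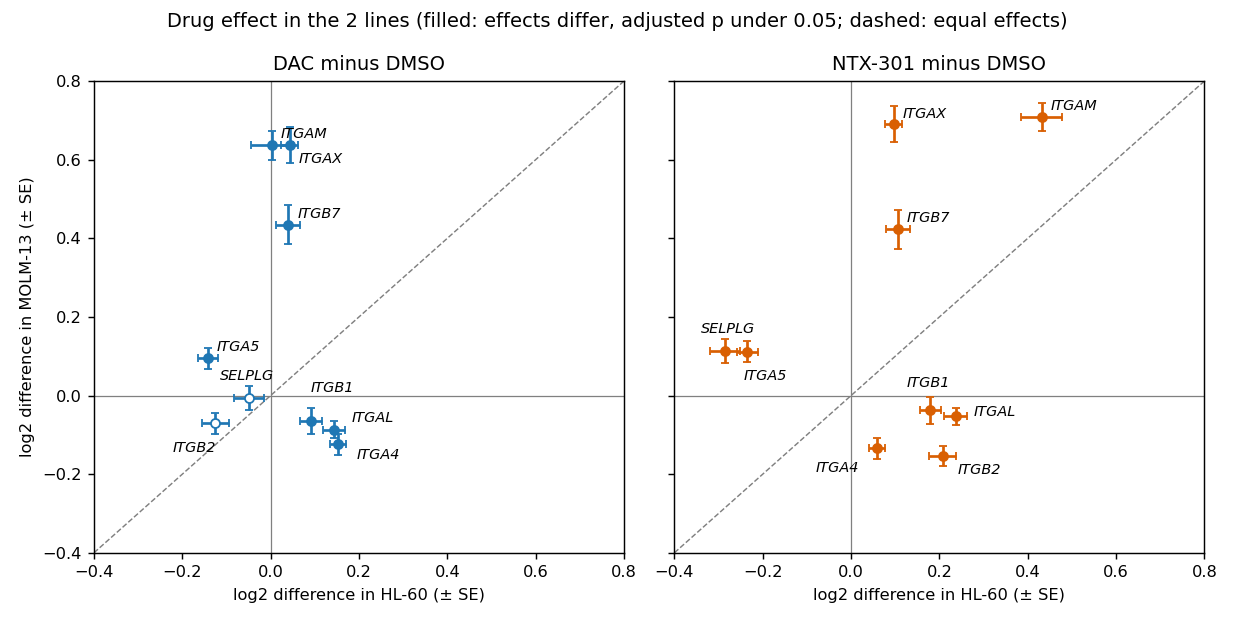
Log2 difference against DMSO in HL-60 (horizontal) and MOLM-13 (vertical) with SE, for DAC (left) and NTX-301 (right), for the 9 members listed in both lines. Filled points differ between lines at an adjusted p under 0.05, and the dashed line marks equal effects. ITGAX lies far above the dashed line with both drugs, and ITGA5 lies to the left of the vertical 0 line and a little above the horizontal 0 line in both panels.

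The balance of subunit RNAs within each sample was described as the log2 α value minus the log2 β value, relative to the DMSO mean of the line, with no test. In MOLM-13, ITGAM gained on ITGB2 by 0.71 ± 0.040 with DAC and 0.86 ± 0.036 with NTX-301, and ITGAX by 0.71 ± 0.071 and 0.85 ± 0.013 (SD, n = 3). ITGA4 stood at −0.56 ± 0.059 and −0.56 ± 0.079 against ITGB7 there, and against ITGB1 at −0.060 ± 0.036 and −0.096 ± 0.035. ITGA4 thus kept closer to ITGB1 than to ITGB7.

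In HL-60 the subunit balance shifted otherwise than in MOLM-13 for some pairs and in the same direction for others. ITGAM minus ITGB2 was higher than with DMSO there too, by 0.13 ± 0.10 under DAC and by 0.22 ± 0.020 under NTX-301. Under DAC the ITGAM difference itself was not called in HL-60 and ITGB2 fell by 0.12, whereas ITGAM rose by 0.64 in MOLM-13. ITGA4 moved in the MOLM-13 direction against ITGB1 under NTX-301 only, at −0.12 ± 0.016. Against ITGB7 its NTX-301 value was −0.047 ± 0.028, within the replicate spread: samples ran from −0.070 to −0.016, and with DMSO from −0.066 to 0.049. ITGB7 is also at a level where the scale is compressed. The DAC values of ITGA4 were 0.063 ± 0.029 against ITGB1 and 0.11 ± 0.023 against ITGB7, opposite to MOLM-13. Under DAC, ITGA5 stood at −0.23 ± 0.011 against ITGB1, and under NTX-301 at −0.41 ± 0.029 (SD, n = 3), where MOLM-13 gave 0.16 ± 0.032 and 0.15 ± 0.059. ITGAL gained on ITGB2 by 0.27 ± 0.035 with DAC and by 0.029 ± 0.049 with NTX-301, the latter within the replicate spread. ITGAX stood at 0.17 ± 0.030 against ITGB2 with DAC and at −0.11 ± 0.047 with NTX-301, with ITGAX at a level where the scale is compressed.

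**Figure D5:**
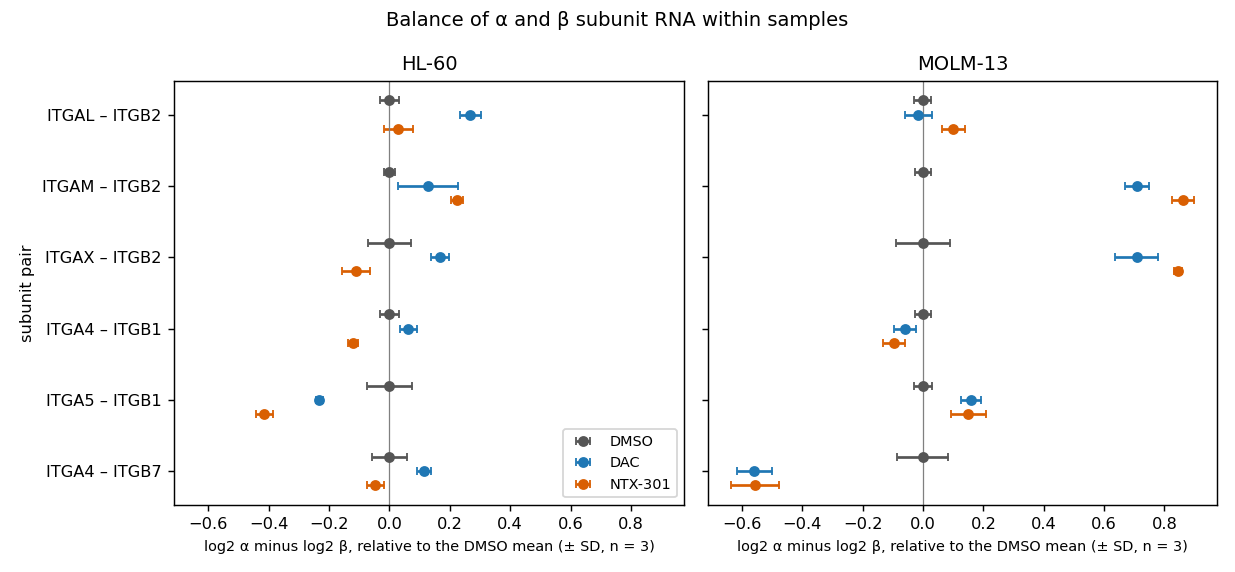
Log2 α minus log2 β subunit value within samples, relative to the DMSO mean of the line (horizontal), for 6 subunit pairs (vertical), mean ± SD of 3 replicates. In MOLM-13, the pairs of ITGAM and ITGAX with ITGB2 lie to the right of 0 with both drugs, at 0.71 to 0.86, and the pair of ITGA4 with ITGB7 lies to the left, at −0.56.

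The rest of the adhesion machinery was followed in 5 gene lists, described by counts. The shares of all genes called against DMSO stand beside them, and nothing particular to a list is read from its count. Genes are named by their adjusted p within a line, so naming a gene for HL-60 or MOLM-13 does not mean that the other line was unchanged. Of 18 other integrin subunits, 7 were tested in each line. In HL-60, DAC raised 2 and lowered 1, and NTX-301 raised 4. In MOLM-13, DAC raised 4 and lowered 1, and NTX-301 raised 3 and lowered 1. DAC changed 24.2% of all HL-60 genes (11.6% higher) and 36.6% of all MOLM-13 genes (15.4% higher), and NTX-301 changed 37.4% (18.3% higher) and 45.1% (20.3% higher). ITGA2B, the α subunit of the platelet fibrinogen receptor, went in HL-60 from 7.93 ± 0.039 in the DMSO group to 8.52 ± 0.024 in the DAC group and 8.83 ± 0.020 in the NTX-301 group (SD, n = 3), differences of 0.59 (adjusted p 5.20e-08) and 0.90 (adjusted p 3.39e-10). ITGA6, the laminin receptor's α subunit, fell in HL-60 by 0.19 under DAC (adjusted p 0.000613) and was at 0.012 under NTX-301 (adjusted p 0.803), a value that turned to −0.016 with median-centred samples. It rose in MOLM-13, by 0.35 under DAC (adjusted p 0.00173) and 0.35 under NTX-301 (adjusted p 0.00126). In MOLM-13, ITGB5 rose by 0.52 under NTX-301 (adjusted p 1.21e-05), and its DAC difference of 0.14 (adjusted p 0.0496) lost its call in 13 of 17 alternative analyses. ITGA7, another laminin receptor subunit, rose by 0.25 (adjusted p 5.73e-05) and 0.21 (adjusted p 0.000119).

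Genes that regulate integrin activation, some of them inhibitors (SHARPIN, ITGB1BP1 and FLNA), numbered 16, with 14 tested in HL-60 and 15 in MOLM-13. NTX-301 raised 7 and lowered 2 in HL-60, where DAC raised 2 and lowered 1. In MOLM-13, DAC raised 6 and lowered 4, and NTX-301 raised 5 and lowered 6. Of all HL-60 genes 24.2% were called with DAC and 37.4% with NTX-301, and of all MOLM-13 genes 36.6% and 45.1%. FERMT3, the kindlin of blood cells that binds β subunit tails, rose in MOLM-13 by 0.59 under DAC (adjusted p 8.84e-07) and 0.50 under NTX-301 (adjusted p 1.75e-06). FLNA, an actin crosslinker that competes for those tails, rose there by 0.35 (adjusted p 1.10e-06) and 0.24 (adjusted p 9.08e-06). FLNA rose in HL-60 too, by 0.18 (adjusted p 0.000162) and 0.16 (adjusted p 0.000159). In HL-60, APBB1IP, the Rap1 effector RIAM, rose by 0.28 under NTX-301 (adjusted p 8.39e-06) and was at 0.0037 under DAC (adjusted p 0.947). RASSF5, another Rap1 effector, rose by 0.22 under NTX-301 (adjusted p 1.49e-05), and its DAC difference of 0.090 (adjusted p 0.0235) was no longer called in 4 of the 9 analyses that left out a replicate. APBB1IP also rose in MOLM-13, by 0.12 under DAC (adjusted p 0.0202) and 0.18 under NTX-301 (adjusted p 0.00183).

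Genes that carry integrin signals or link integrins to actin numbered 20, with 16 tested in HL-60 and 19 in MOLM-13. In HL-60, NTX-301 raised 8 and lowered 2, and DAC raised 2 and lowered 4. In MOLM-13, NTX-301 raised 8 and lowered 3, and DAC raised 6 and lowered 2. The shares over all genes were 37.4% for NTX-301 and 24.2% for DAC in the first line, against 45.1% and 36.6% in the second. FGR and SRC, kinases of the Src family, rose in MOLM-13. FGR rose by 0.87 under DAC (adjusted p 2.44e-06) and 0.59 under NTX-301 (adjusted p 1.88e-05), and SRC by 0.50 (adjusted p 4.19e-05) and 0.56 (adjusted p 1.15e-05). In HL-60, the actin crosslinker ACTN1 rose by 0.12 (adjusted p 0.00405) and 0.24 (adjusted p 4.70e-06), and PARVG, a parvin of blood cells, fell by 0.17 (adjusted p 4.85e-05), with an NTX-301 difference of −0.11 (adjusted p 0.000746). PARVG rose in MOLM-13 under NTX-301, by 0.091 (adjusted p 0.011), and was not called there under DAC (0.018, adjusted p 0.611).

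Of 17 other counter-receptors of integrins and selectins, 8 were tested in each line. In MOLM-13, DAC raised 6 and lowered 1, and NTX-301 raised 5 and lowered 1. In HL-60, each drug raised 2 and lowered 2. Of all genes, DAC changed 36.6% and NTX-301 45.1% in MOLM-13, against 24.2% and 37.4% in HL-60. ICAM3, a ligand of LFA-1 on resting leukocytes, fell in HL-60, with differences of −0.19 under DAC (adjusted p 0.000223) and −0.31 under NTX-301 (adjusted p 7.98e-07), and rose in MOLM-13 by 0.42 (adjusted p 4.26e-06) and 0.22 (adjusted p 0.000193). CD44, the hyaluronan receptor, rose in MOLM-13 by 0.17 (adjusted p 0.000264) and 0.21 (adjusted p 4.89e-05). PECAM1, an adhesion molecule of leukocytes and endothelium, rose in HL-60 by 0.35 under NTX-301 (adjusted p 4.77e-06), and its DAC difference of 0.14 (adjusted p 0.0151) was not called after quantile normalization (0.10) or without DAC replicate 2 (0.13). PECAM1 also rose in MOLM-13, by 0.24 under DAC (adjusted p 4.93e-05) and 0.13 under NTX-301 (adjusted p 0.00235).

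PSGL-1 binds selectins only once it carries the right sugars, and 14 genes of that glycosylation were listed for the comparison, 13 tested in HL-60 and 14 in MOLM-13. In HL-60, DAC raised 3 and lowered 1, and NTX-301 raised 5 and lowered 3. In MOLM-13, DAC raised 4 and lowered 4, and NTX-301 raised 4 and lowered 6. Beside these stand 24.2% (DAC) and 37.4% (NTX-301) of all HL-60 genes, and 36.6% and 45.1% of all MOLM-13 genes. FUT7, the fucosyltransferase that completes the selectin ligand, fell in MOLM-13, with differences of −0.39 under DAC (adjusted p 3.43e-05) and −0.36 under NTX-301 (adjusted p 4.07e-05). In HL-60 it fell too, with differences of −0.32 (adjusted p 2.57e-05) and −0.21 (adjusted p 0.000335). Neither effect differed between the lines by limma's test of the difference (adjusted p 0.388 and 0.0592). C1GALT1C1, the chaperone of the core O-glycan enzyme, fell in MOLM-13, with differences of −0.17 (adjusted p 0.00459) and −0.24 (adjusted p 0.000374). Its HL-60 differences were −0.021 (adjusted p 0.732) and −0.22 (adjusted p 0.000342). In HL-60, FUT4, a related fucosyltransferase, fell by 0.29 under NTX-301 (adjusted p 2.64e-07), and its DAC rise of 0.068 (adjusted p 0.0385) was lost in 8 of 17 alternative analyses. GALNT2, which starts O-glycans, rose there by 0.21 (adjusted p 7.41e-06) and 0.17 (adjusted p 1.53e-05). In MOLM-13 GALNT2 rose as well, by 0.25 (adjusted p 0.00123) and 0.21 (adjusted p 0.00277).

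The 5 lists are given in the order described. Their median log2 differences in HL-60 were 0.025, −0.030, 0.042, 0.013 and 0.034 with DAC, beside 0.00064 over all genes tested. With NTX-301 they were 0.058, 0.074, 0.087, 0.015 and 0.016 there, beside 0.00082. In MOLM-13 the medians were 0.13, 0.0067, 0.065, 0.16 and 0.0066 with DAC, beside 0.0013, and 0.070, −0.023, 0.064, 0.12 and 0.031 with NTX-301, beside 0.0034. The counter-receptors in MOLM-13 had the highest median of the lists with either drug, and the activation genes had a median below 0 with DAC in HL-60 and with NTX-301 in MOLM-13.

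The genes whose values ran most like those of one member were found by Pearson's r over the 9 samples of a line, which form 3 treatment groups. For ITGAM in MOLM-13, among 10972 genes at a mean log2 value of at least 8, these were TRIM22, AXL, MDM2, NHSL2 and ZMAT3, with r from 0.994 to 0.998. Their rises with DAC and NTX-301 were 0.54 and 0.58 for TRIM22, 1.07 and 1.19 for AXL, and 0.69 and 0.80 for ZMAT3. For ITGA5 in HL-60, among 10333 genes, they were IL6R, HPDL, INPP5A, YBX3 and NRROS, with r from 0.985 to 0.986. IL6R, the interleukin-6 receptor, stood at −0.30 with DAC and −0.53 with NTX-301. These r values describe 9 samples and carry no test.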

How the data were processed

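RNA of HL-60 and MOLM-13 cells was measured in 18 samples, 3 per line and treatment. The authors deposited 1 normalized log2 value per gene and sample, with NCBI Gene IDs and symbols per the file headers. The submitters' processing notes name FastQC, Trimmomatic 0.38, HISAT2, StringTie and hg19. How values were normalized, which annotation was used and whether strand was used are not given in the sources used here. Gene sets differed between lines and were the same within them, so levels were not compared between lines. Depth is unknown, so precision rests on the replicate spread.

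Genes that reached a linear value of 1 in 3 or more samples entered limma 3.58.1 in R 4.3.3 (two-sided, eBayes with trend). Each line's 9 samples shared 1 fit with 6 residual degrees of freedom, and the difference between lines came from all 18 samples with 12. The Benjamini-Hochberg adjustment ran over every gene tested, and 0.05 was the threshold. The script was tested on simulated data. The members and lists were chosen with earlier results of these data known. Named genes were the 10 members, the 2 genes per list and line with the lowest adjusted p against DMSO, and the 5 genes most like the member with the lowest adjusted p in each line. Alternatives were other scalings, filters and fits, a replicate block and leaving out each replicate. Promoter letters come from RefSeq (GRCh38.p14) and were matched by NCBI Gene ID.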

Additional observations from a re-analysis of the deposited data

Results flagged for a closer look

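The drug effects that differed between MOLM-13 and HL-60 by limma's test of the difference are collected here, with the HL-60 effect subtracted from the MOLM-13 effect on the log2 scale. With DAC the difference was 0.63 for ITGAM, 0.59 for ITGAX, 0.39 for ITGB7 and 0.24 for ITGA5, all higher in MOLM-13. It was −0.28 for ITGA4, −0.23 for ITGAL and −0.15 for ITGB1, all lower there. The ITGB1 difference was −0.069 and not called after quantile normalization. With NTX-301 the difference was 0.59 for ITGAX, 0.40 for SELPLG, 0.35 for ITGA5, 0.32 for ITGB7 and 0.28 for ITGAM. It was −0.36 for ITGB2, −0.29 for ITGAL, −0.22 for ITGB1 and −0.19 for ITGA4. The lines also differed in the concentration that the labels give, 30 nM in HL-60 against 15 nM in MOLM-13, so line and concentration cannot be told apart. No group held more than 3 samples, so single samples were not screened as outliers.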

How the results depend on the processing

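Of 75 results on single members, 48 kept their direction and their side of the threshold under every alternative run, among them 40 of the 53 called ones. The counts of members called stayed within 1.5 times except in MOLM-13: DAC against DMSO gave 5 after quantile normalization, and NTX-301 against DAC gave 0 without the mean-variance trend, with only the 2 groups compared and with the replicate block, and 0 to 1 when 1 replicate was left out. For that last comparison limma gave 3 members (SELPLG, ITGB2 and ICAM1) an unadjusted p under 0.05 with all samples and the trend.

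The labels do not say whether replicate numbers pair the samples. Deviations of same-numbered samples correlated between −0.057 and 0.12 for HL-60, and between −0.16 and 0.11 in MOLM-13. Other-numbered samples gave similar ranges, −0.12 to 0.11 and −0.12 to 0.16, which cannot show how the cultures were handled. With the replicate block, DAC against DMSO called 5 HL-60 and 7 MOLM-13 members, and NTX-301 against DMSO called 9 and 7.

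Some values changed direction, most of them near 0 and not called. After quantile normalization, ITGAM with DAC in HL-60 was −0.017. In MOLM-13 it gave 0.026 for ITGB2, 0.032 for ITGB1 and 0.057 for SELPLG with DAC, 0.019 for ITGAL and 0.074 for ITGB1 (called) with NTX-301, and 0.013 for ITGA4 and 0.0026 for ITGB7 in NTX-301 against DAC. Median-centred samples gave −0.016 for ITGA6 with NTX-301 in HL-60. Leaving out 1 replicate at a time gave these ranges across 0. In HL-60 they were −0.046 to 0.042 for ITGAM and −0.016 to 0.021 for APBB1IP with DAC, and −0.018 to 0.037 for ITGA6 with NTX-301. In MOLM-13 the range was −0.019 to 0.0035 for SELPLG with DAC. There, NTX-301 against DAC ranged from −0.022 to 0.0084 for ITGA4, −0.043 to 0.039 for ITGB7, −0.0037 to 0.062 for ITGB1 and −0.0019 to 0.036 for ITGA5. The cause was not tested.

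Median-centring changed how all calls split into higher and lower: NTX-301 in HL-60 had 2310 and 5400 against 3115 and 3265, NTX-301 against DAC there had 1818 and 4860 against 2622 and 2563, DAC in MOLM-13 had 1960 and 5731 against 2689 and 3705, NTX-301 there had 2735 and 5760 against 3543 and 4337, and the line difference with DAC had 1359 and 4382 against 1871 and 2767. Read depth is unknown, and low genes are compressed, which limits ITGAX and ITGB7 in HL-60.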
